A study of Mus musculus with 8 samples.

Results

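The lung 1 day after left unilateral pneumonectomy (PNY) was set against the lung 1 day after a sham thoracotomy (SHAM), a comparison that takes 2 of the 8 arrays of the series. The 2 arrays were chosen by their labels alone, and the value compared is the log2 expression on the PNY array minus that on the SHAM array. The mice were adult females of the C57BL/6 strain, 10 to 12 weeks old. All had ketamine and xylazine anesthesia, saline, ampicillin, mechanical ventilation, an opened left chest and buprenorphine for pain. In PNY mice the left lung was tied off at the hilum and removed, while in SHAM mice the chest stood open for a short while and was closed with the lung in place. Lung tissue of 8 mice was pooled on each array, so a value is the mean of a pool. With 1 array a side, the difference at 1 day has no replicate and no test, and "higher" and "lower" below describe these 2 pools. The PNY tissue was the lung that remained, and the sources used here do not state which lobes of the SHAM lungs were taken.

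After the loss of one lung the remaining lobes of an adult mouse enlarge and form new alveoli. The tissue that grows is made of alveolar type I cells, which cover the gas exchange surface, surfactant-producing type II cells, capillary endothelium and the fibroblasts that lay down collagen and elastic fibers. The first day falls before most cells divide, and genes that respond to stretch, growth factors and the clock are among those known to move early. A lung sample can also hold lymphoid tissue, and the thymus lies next to the lungs in the chest. Developing T cells in the thymus cut and join their antigen receptor genes with the Rag enzymes, whereas T cells that circulate through the lung no longer express Rag.

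The brightest of its probe sets, by the mean of all arrays, stood for each gene, which left 18193 genes. A fold of at least 1.5 either way, or 0.585 on the log2 scale, was the mark for a gene to be counted. At 1 day PNY exceeded SHAM by this fold in 342 genes (1.88%) and fell short of it by this fold in 198 (1.09%). The difference of the 18193 genes had a median of 0.02 and a standard deviation (SD) of 0.258. Of the 12151 genes above the median level of all probe sets, 170 were higher and 47 lower. The SHAM arrays were also set against each other. They differ in time but not in surgery, so their differences hold change with time as well as the spread between pools. Between 2 SHAM arrays 360 (3 and 7 days) to 2229 (6 hours and 7 days) genes were past 1.5-fold. The SD of the difference was 0.235 to 0.414. The 540 genes of the 1 day comparison lie within that range, which does not give the spread between pools alone. Among the 342 higher genes, 225 had a PNY value above all 4 SHAM arrays, where 15.5% of all genes had. Among the 198 lower genes 135 had one below all 4, where 19.7% of all genes had. The SHAM array of 1 day, by which these genes were picked, is 1 of the 4, so high shares are in part set by the choice. The SHAM array alone lay outside the 6 arrays of the other times for 109 of the higher genes, the PNY array alone for 108, both for 70 and neither for 55. For the lower genes these counts were 53 for SHAM alone, 51 for PNY alone, 74 for both and 20 for neither. Over all genes the SHAM array of 1 day was above the other 6 for 11.2% and below them for 20.0%, and the PNY array for 12.2% and 19.8%.

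Genes of developing T cells were among those furthest above SHAM at 1 day. Of 15 measured genes of the thymocyte list, 14 were at least 1.5-fold higher, and all 15 were higher, with a median log2 difference of 1.80 against 0.02 over all genes. Rag1, which starts the cutting of antigen receptor genes, had a log2 value of 9.60 in PNY and 3.62 in SHAM, and the 6 arrays of the other times held 2.56 to 3.21. Dntt, the enzyme that adds bases at the joins, had 8.26 in PNY and 5.42 in SHAM, with 4.79 to 5.17 on the other arrays. Ccr9, the receptor that guides progenitors into the thymus, had 8.86 in PNY and 5.66 in SHAM, with 4.51 to 5.53 on the others. For these 3 genes the PNY array stood far above the other 7. On those 7 arrays they lay below 5.92, the median level of all probe sets, so the order among them was not read. The coreceptor genes Cd8b1 (9.20 in PNY and 6.84 in SHAM), Cd8a (8.26 and 6.30) and Cd4 (7.89 and 6.79) were higher too, as were the T lineage regulators Satb1 (9.71 and 7.78) and Bcl11b (8.36 and 6.55). Ptcra, the partner chain of the early T cell receptor, had 5.55 in PNY and 4.47 in SHAM, but it lay below 5.92 on every array. Every one of the 15 genes was higher in PNY of 1 day than on each of the other 7 arrays, down to Lef1 with 7.49 in PNY, 7.06 in SHAM and at most 7.47 elsewhere. The mean log2 level of the list was 7.73 in PNY of 1 day and 5.73 in SHAM of 1 day, and lay between 5.47 and 5.91 on the other 6 arrays.

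Genes of the thymic stroma, the epithelium that rears thymocytes, were higher in part. Prss16, a protease of the thymic cortex, had 7.67 in PNY and 4.98 in SHAM, and 4.64 to 5.10 on the other arrays. Ccl25, the ligand of Ccr9, had 8.09 in PNY and 6.48 in SHAM, with 5.51 to 6.23 elsewhere, while its second probe set had a difference of -0.15. Psmb11, the thymus subunit of the proteasome, had 5.19 in PNY and 3.76 in SHAM, with 3.72 to 4.42 elsewhere. These 3 of the 8 measured genes were the ones past 1.5-fold, and each was above all 7 other arrays. In all 5 were higher and 3 lower. Dll4 was the furthest down, with 8.33 in PNY and 8.91 in SHAM, and both of its 2 probe sets were lower. The list median was 0.21, and -0.075 against the mean of SHAM at 3 and 7 days. Foxn1 and Aire, regulators of thymic epithelium, had 4.36 in PNY and 4.40 in SHAM for Foxn1 and 5.28 and 5.32 for Aire. These values lie below 5.92, the median level of all probe sets, so a lack of difference was not read from them. Psmb11 lies below 5.92 on every array as well, so its difference calls for the same caution. In bulk tissue more cells of a type and more RNA per cell cannot be told apart. Whether thymus entered the pool was not tested.

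**Figure D1:**
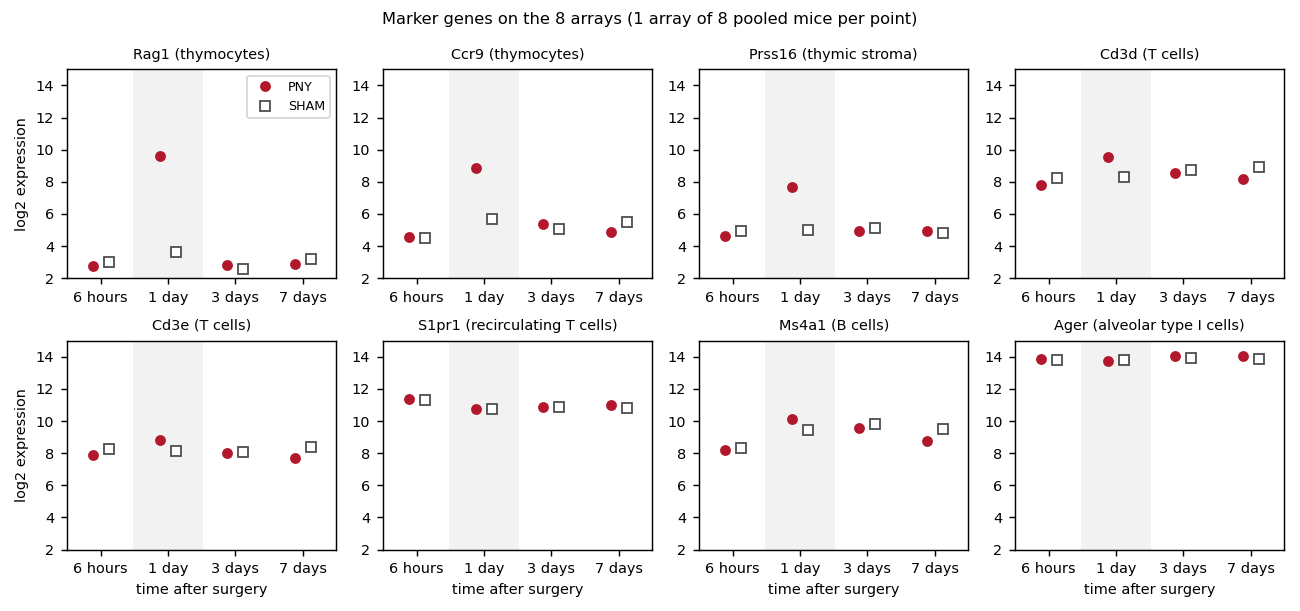
Log2 expression (y axis) of 8 marker genes against time after surgery (x axis), with PNY as filled circles left of SHAM as open squares and 1 day shaded; each point is 1 array of 8 pooled mice. Rag1, Ccr9 and Prss16 stand apart on the PNY array of 1 day (Rag1 at 9.60 against 3.62 in SHAM), while S1pr1 and Ager lie level between PNY and SHAM at 1 day.

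Genes of T cell receptor signaling that thymocytes share with mature T cells were also higher in PNY at 1 day. Of 20 measured genes 12 were at least 1.5-fold higher and none was lower by that fold, with a median of 0.95. In all 16 were higher and 4 lower, with the inhibitory receptor Ctla4 the furthest down (4.66 in PNY and 5.08 in SHAM). The receptor chain Cd3d had 9.56 in PNY and 8.29 in SHAM, Cd3g 8.57 and 7.34, Cd3e 8.83 and 8.12 and Cd247 7.49 and 6.38. The costimulatory receptor Cd28 had 6.54 in PNY and 4.87 in SHAM, and the adaptor Sh2d1a 6.78 and 4.61. All 6 were above every other array on the PNY array of 1 day. By contrast Zap70 (8.68 and 8.73), Cd2 (8.05 and 8.00) and Icos (5.94 and 5.95) were near level. Of the 8 measured genes of mature T cells that recirculate through blood and lymph, none was past 1.5-fold, 6 were higher, and the median was 0.04. The furthest up were the cytokine receptor Il7r (7.98 in PNY and 7.48 in SHAM) and the homing receptor Ccr7 (8.17 and 7.83), both inside the range of the other arrays. S1pr1, through which T cells leave lymphoid organs, had 10.78 in PNY and 10.72 in SHAM, and Klf2, its regulator, 11.77 and 11.65, and both genes are also known from endothelium. Of 14 genes of NK cells and cytotoxic lymphocytes none was past 1.5-fold either, with a median of 0.07. Against the mean of SHAM at 3 and 7 days the median was -0.396 for this list and -0.148 for mature recirculating T cells.

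B cell and antibody genes were higher by less at the list median, and the sign of both medians turned with the control. Of 18 B cell genes 16 were higher in PNY, but only Pou2af1 (8.13 in PNY and 7.44 in SHAM), Ms4a1 (10.11 and 9.43) and Bank1 (8.34 and 7.68) by 1.5-fold, and the median was 0.28. Of 12 genes of antibody-secreting cells 3 were past 1.5-fold. Jchain, which links antibody units, had 9.55 in PNY and 7.33 in SHAM, a 4.68-fold difference, Igha had 10.64 and 8.99, and Ighm 11.11 and 10.05. Igkv15-103, a kappa light chain segment, had the widest difference of any gene above the median level, with 8.67 in PNY and 5.79 in SHAM. These antibody genes varied more between the other arrays than the thymocyte genes did. Igkv15-103 reached 8.58 in SHAM of 7 days, Jchain 9.68 and Ighm 12.23 somewhere on the other 6 arrays, and probe sets of antibody segments can share sequence. Of Jchain, Igha and Ighm, only Igha, with at most 9.92 on the other arrays, was above all of them in PNY of 1 day, and against the mean of SHAM at 3 and 7 days Ighm was lower in PNY by 0.72. Against that control the list median was -0.03 for B cells and -0.16 for antibody-secreting cells.

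Over the 97 measured genes of the 8 lymphoid lists, 35 (36.1%) lay past the mark upward in PNY and none downward. The 342 higher genes held these 35 and a further 11 antigen receptor segments, so 296 genes, or 1.64% of the 18070 genes outside both sets, remained. None of the 198 lower genes came from the lymphoid lists or the segments.

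**Figure D2:**
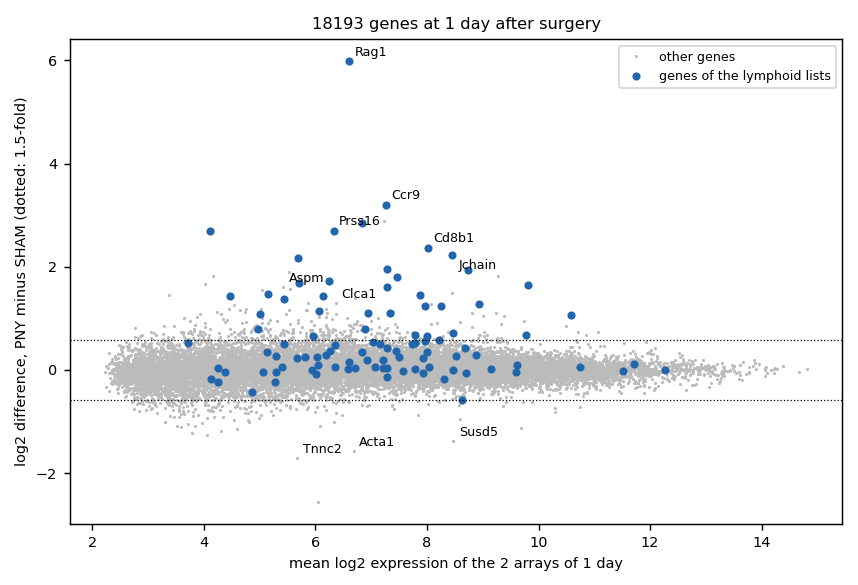
Log2 difference at 1 day, PNY minus SHAM (y axis), against the mean log2 expression of both arrays (x axis) for 18193 genes; blue points are genes of the lymphoid lists, grey points all others, and dotted lines mark 1.5-fold. The blue points reach from below 0 to 5.98 (Rag1), and none lies under the lower dotted line.

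Which probe sets differed between PNY and SHAM at 1 day otherwise than at the other times was tested with limma, by setting the difference at 1 day against the mean of the differences at 6 hours, 3 days and 7 days. The error of this test starts from the spread among the other 3 times, which holds real change with time and leaves 2 residual degrees of freedom. It is then drawn by limma toward a value common to all probe sets. The standard errors and p-values below thus do not rest on that spread alone. At an adjusted p of 0.05 (Benjamini-Hochberg over 45037 probe sets) 26 probe sets (0.0577%) were further above SHAM at 1 day than at the other times, and 5 (0.0111%) further below. At an unadjusted level of 0.05 the counts were 1478 and 1190. The 26 held 19 probe sets with a gene name, from 14 genes, and 13 of these are in the lymphoid lists: Rag1, Dntt, Ccr9, Arpp21, Cd8a, Cd8b1, Satb1, Bcl11b, Prss16, Tbata, Sh2d1a, Cd28 and Ighm. The other was the T cell receptor segment Trbv1. For Rag1 the difference at 1 day exceeded that of the other times by 6.09 ± 0.269 (standard error; limma, adjusted p = 0.00120), for Prss16 by 2.80 ± 0.227 (adjusted p = 0.0125) and for Bcl11b by 2.01 ± 0.210 (adjusted p = 0.0391). Tbata, a gene of thymic stroma, was called by 2 of its 4 probe sets, whose differences were both 2.92, but not by its brightest probe set, whose difference was 0.23. Ighm, Cd8a and Arpp21 were not called by their brightest probe sets either (limma, adjusted p = 0.852, 0.0569 and 0.0525). Of the 5 probe sets further below, 1 has a gene name here. It is Vmn1r148, a pheromone receptor gene, with 4.77 in PNY and 7.32 in SHAM against 4.46 to 5.76 on the other arrays. These calls depend on the setting. Among the 22518 probe sets above the median level none was called, with a smallest adjusted p of 0.0896, and without time as a block 4 were.

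Over the 16 lists of lung cells, 7 of 198 genes (3.54%) were past 1.5-fold upward and 5 (2.53%) downward, beside 1.88% and 1.09% of all genes. The 7 were Cxcl13, Clca1, Slc26a4, Actg2, H2-Oa, Ms4a7 and Slc7a10, and the 5 were Arg1, Serpinb2, Ccl24, Muc5b and Ccr3. They came from lists of goblet cells, smooth muscle, fibroblasts, macrophages, antigen-presenting cells and eosinophils, and Slc26a4, Slc7a10 and Ccl24 turned direction against the mean of SHAM at 3 and 7 days. The widest was Cxcl13, a B cell attractant that serosal macrophages make, with 9.18 in PNY and 7.70 in SHAM. No measured gene of alveolar type I cells (12 genes), type II cells (17), club cells (10), ciliated cells (16), capillary endothelium (20) or alveolar macrophages (9) was past 1.5-fold. Their medians were -0.01 for type I cells, -0.05 for type II cells, -0.09 for club cells, -0.11 for ciliated cells, -0.07 for capillary endothelium and -0.27 for alveolar macrophages. Surfactant protein Sftpc had 14.66 in PNY and 14.69 in SHAM, the type I cell receptor Ager 13.75 and 13.79, the club cell secretory protein Scgb1a1 14.82 and 14.81, and the endothelial cadherin Cdh5 11.37 and 11.44. The brightest probe set of each of these defining markers was thus near level between the surgeries, though the second probe set of Sftpc was lower in PNY by 0.83 on the log2 scale. In the alveolar macrophage list, 8 of 9 genes were lower in PNY of 1 day than on all 6 arrays of the other times, as were 19.8% of all genes. Itgax, an integrin of these cells, had 8.33 in PNY and 8.83 in SHAM, with 8.81 to 9.18 on the other arrays. The mannose receptor Mrc1 had 9.25 in PNY and 9.67 in SHAM, with 9.52 to 10.00 elsewhere. The SHAM array of 1 day was also low in this list, with a mean level of 9.20 against 9.37 to 9.63 on the other arrays and 8.996 in PNY.

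Airway mucus genes were higher as a group but rarely past the mark. Of 13 measured genes of goblet cells 12 were higher in PNY, 2 of them by 1.5-fold, with a median of 0.29. Clca1, a secreted goblet cell protein, had 7.00 in PNY and 5.72 in SHAM, and the 3 other SHAM arrays held 5.20 to 5.74, while its second probe set was lower by 0.15. At the other times Clca1 was further above SHAM, by 2.36, 4.05 and 3.07 at 6 hours, 3 days and 7 days, so 1 day held its smallest difference. Muc5b, the main gel-forming mucin of the mouse airway, went the other way, with 7.69 in PNY and 8.34 in SHAM. At the other 3 times it was higher in PNY, by 0.58 to 0.71. For 7 of the 13 genes the SHAM value of 1 day was below all 6 arrays of the other times, against 20.0% of all genes. Muc5ac was among the 7, with 6.16 in PNY, 5.58 in SHAM and 6.03 to 6.34 elsewhere. Of 15 smooth muscle genes 10 were higher. The contractile genes Actg2 (8.64 in PNY and 7.73 in SHAM), Tagln (11.41 and 10.94) and Cnn1 (8.93 and 8.47) were above all 4 SHAM arrays, with Actg2 the one past 1.5-fold. In each of them SHAM of 1 day was below all 6 arrays of the other times, and PNY lay inside their range. Tagln was barely above SHAM of 6 hours (11.414 against 11.394).

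**Figure D3:**
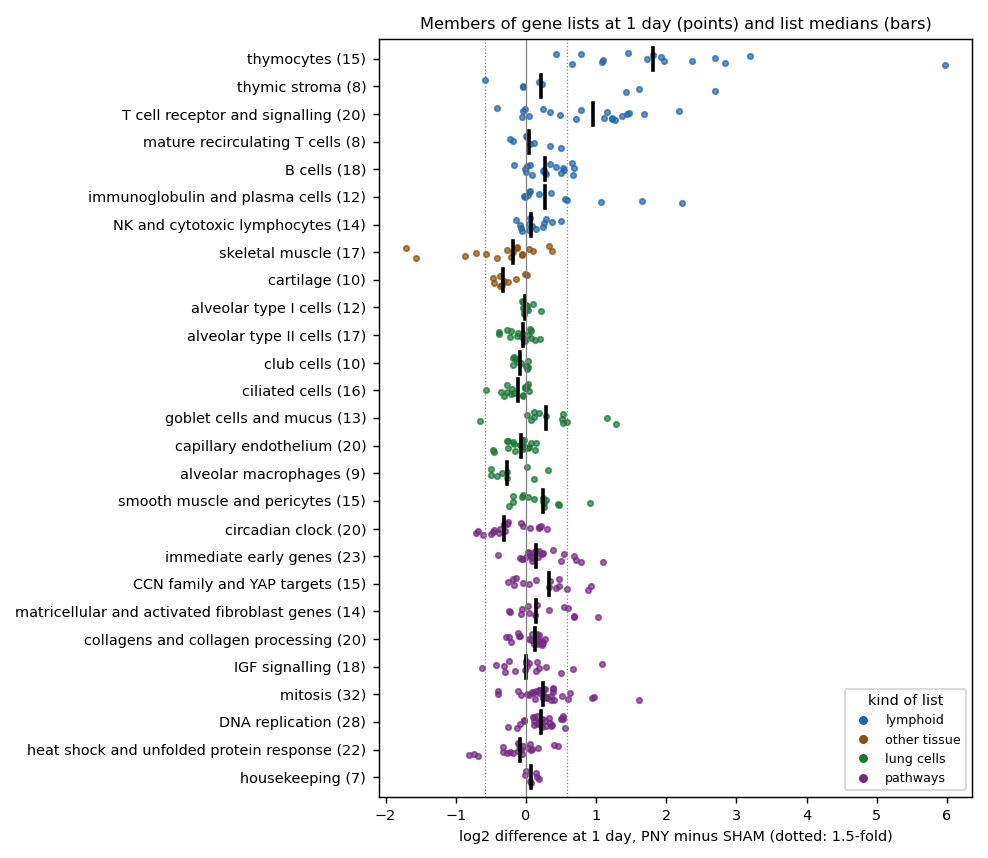
Log2 difference at 1 day, PNY minus SHAM (x axis), of each measured member of 27 gene lists (rows, with the number of members); black bars are list medians, colors the kind of list, and dotted lines mark 1.5-fold. The thymocyte median is 1.80 and the T cell receptor median 0.95, while the medians of type I, type II, club and ciliated cells and capillary endothelium lie between -0.11 and -0.01.

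Genes of insulin-like growth factor (IGF) signaling, which drives growth of mesenchymal and other cells, lay on both sides. Igf1, the ligand, had 8.76 in PNY and 8.27 in SHAM, a 1.41-fold difference, and the other 3 SHAM arrays held 7.81 to 8.59. All 4 probe sets of Igf1 were higher in PNY. Of the binding proteins that hold IGF outside cells, Igfbp2 had 11.18 in PNY and 10.51 in SHAM, and Igfbp3 had 9.40 in PNY and 10.03 in SHAM. The PNY array thus lay above all 4 SHAM arrays for Igf1 and Igfbp2, and below all 4 for Igfbp3. Pappa2, a protease that frees IGF from its binding proteins, had 4.48 in PNY and 3.39 in SHAM, at a low level. The receptors were near level, with 9.47 and 9.62 for Igf1r and 8.29 and 8.53 for Insr. Over the 18 measured genes 2 were past 1.5-fold upward and 1 downward, with a median of 0.01. Igf1, Igfbp2, Igfbp3 and Pappa2 had differences of the same sign at 3 and 7 days, which were wider for Igf1 (0.97 and 0.83) and Igfbp3 (-0.88 and -1.02).

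Targets of YAP, a coactivator that responds to stretch, and matricellular genes, which code for proteins that tune how cells hold to the matrix, had single members apart. Ccn1, a matricellular ligand of integrins, had 9.78 in PNY and 8.89 in SHAM, and all 4 of its probe sets were higher. The SHAM array of 1 day was the lowest of the 8 for Ccn1, the 6 arrays of the other times holding 9.01 to 10.88, and against the mean of SHAM at 3 and 7 days PNY was lower by 0.53. Against SHAM of the same time Ccn1 was higher in PNY at 6 hours, 3 days and 7 days too, by 0.75, 0.49 and 0.44. Ccn5 had 9.05 in PNY and 8.13 in SHAM, Ccn2 10.96 and 10.38 and Ankrd1 8.63 and 8.16, and these 3 were above all 4 SHAM arrays. Of the 15 genes of this list 10 were higher, 2 by 1.5-fold, with a median of 0.33, where 9746 of all 18193 genes were higher. Tnc, a matrix glycoprotein of growing tissue, had 6.57 in PNY and 5.55 in SHAM and was above all 4 SHAM arrays, though its second, dimmer probe set was lower by 0.34. Tnfrsf12a, the receptor of the cytokine TWEAK, had 9.30 in PNY and 8.62 in SHAM, Thbs1 9.27 and 8.59, and the protease Adamts9 8.75 and 8.14. In the matricellular list 4 of 14 genes were past 1.5-fold at 1 day, against 7 at 3 days, where 1.88% and 1.14% of all genes were higher by that fold. Collagen genes were less apart. None of 20 was past 1.5-fold, but 9 of them, with Col1a1 (10.36 and 10.13) and Col3a1 (12.77 and 12.66), were above all 4 SHAM arrays in PNY, where 15.5% of all genes were. Elastin (Eln) had 11.33 in PNY and 10.87 in SHAM, and was not above SHAM of 7 days.

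Some short promoter stretches of the YAP targets and clock genes are shown as examples, since these families are read through known motifs. In the 250 bases before the start of each gene (RefSeq, build GRCm38.p6), GGAATG, the motif of the TEAD factors that YAP binds, was sought on both strands. It was found for 4 of 9 genes of the YAP list with a promoter (44.4%), against 14.4% of all 27025 genes. The 4 were Ccn1, Ankrd1, Amotl2 and Crim1, of which Ccn1 and Ankrd1 are shown. Below, capitals mark the motif, which is read as its reverse complement, CATTCC, in Ccn1.
Ccn1 (chr3:145650063-145650108, minus strand): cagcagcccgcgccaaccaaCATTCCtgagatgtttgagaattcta
Ankrd1 (chr19:36119942-36119987, minus strand): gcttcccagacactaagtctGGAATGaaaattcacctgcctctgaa
The matches lie 103 bases before the start in Ccn1 and 123 in Ankrd1, which held a second match 210 bases before it. They describe the letters only, and whether any factor bound there was not measured.

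**Figure D4:**
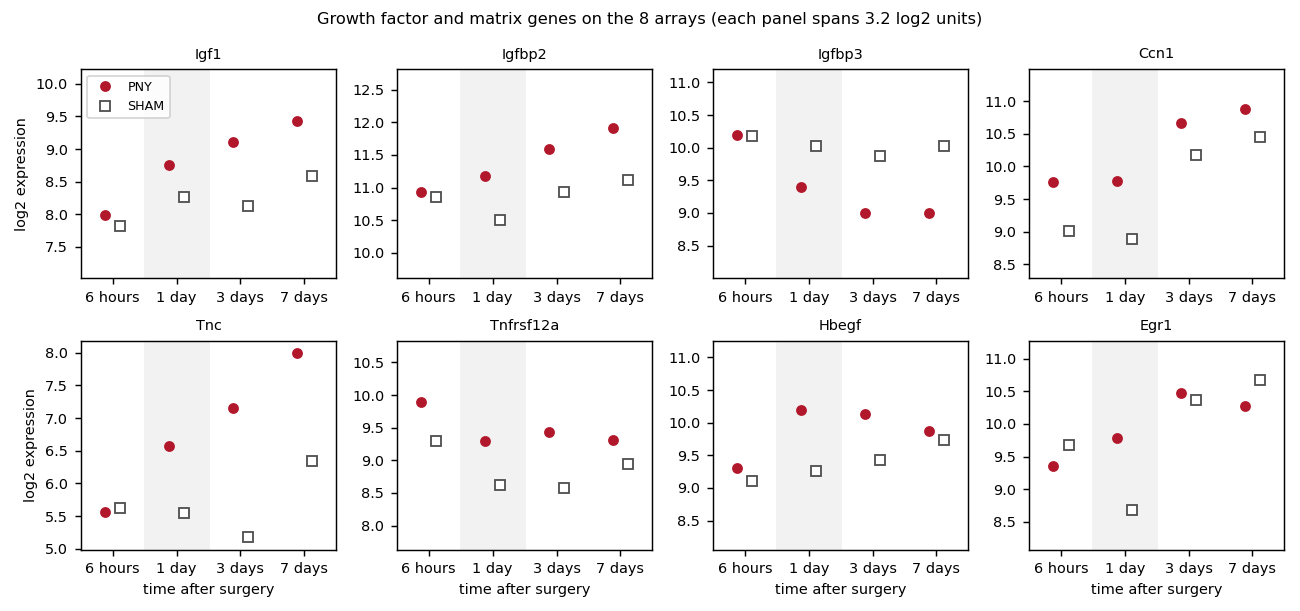
Log2 expression (y axis, each panel spanning 3.2 log2 units) of 8 growth factor, matrix and early response genes against time after surgery (x axis), PNY as filled circles left of SHAM as open squares, 1 array per point, 1 day shaded. Igf1, Igfbp2 and Tnc are higher and Igfbp3 is lower in PNY at 1 day, and for Ccn1 and Egr1 the SHAM array of 1 day is the lowest of the 8.

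Growth factor ligands other than IGF showed single genes apart. Hbegf, a ligand of the EGF receptor, had 10.20 in PNY and 9.26 in SHAM, a 1.92-fold difference, and lay above the other 6 arrays (9.11 to 10.13). Vegfc, a ligand for lymphatic and vascular growth, had 9.12 in PNY and 8.54 in SHAM, with at most 8.95 on the other arrays. Spry4, an inhibitor that ERK signaling induces, had 7.84 in PNY and 7.19 in SHAM and was above all 4 SHAM arrays. The lists they belong to did not stand apart, with medians of 0.01 for EGF ligands and receptors, -0.02 for VEGF and angiopoietin genes and 0.10 for ERK feedback.

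Immediate early genes, which code for factors that switch on within minutes of a stimulus, were mostly higher in PNY, with low values in SHAM of 1 day. Of 23 genes 18 were higher and 4 by 1.5-fold, with a median of 0.14. Egr1 had 9.78 in PNY and 8.68 in SHAM, with 9.35 to 10.67 on the other arrays. Nr4a1 had 9.42 in PNY and 8.75 in SHAM, with 8.95 to 10.72 on the others. Egr2 (6.29 and 5.51) and Fosb (5.00 and 4.29) were the other genes past 1.5-fold. For 13 of the 23 genes the SHAM value was below all 6 arrays of the other times, against 20.0% of all genes, and for Egr1 and Nr4a1 the PNY value lay inside their range. Set against the mean of SHAM at 3 and 7 days, the PNY value of Egr1 was lower by 0.74 and that of Nr4a1 by 1.03, so the direction of both turned with the control, as did that of Egr2 (-0.10). Against SHAM of the same time Nr4a1 was higher in PNY at 6 hours, 3 days and 7 days too, by 0.210, 0.412 and 0.072. The differences of Egr1 at these times were -0.328, 0.110 and -0.395.

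Circadian clock genes, which cycle with the hour of day, were mostly lower in PNY. Of 20 genes 15 were lower, 3 by 1.5-fold, with a median of -0.31. The repressor Nr1d1 had 9.004 in PNY and 9.709 in SHAM, Per2 6.61 and 7.30, and Dbp, an output factor, 7.90 and 8.51. Tef (9.94 and 10.44), Nr1d2 (10.46 and 10.94) and Per3 (7.22 and 7.69) were lower by less. The 5 genes that were higher came from both arms, with the repressor Cry1 at 7.62 in PNY and 7.31 in SHAM, Nfil3 at 6.98 and 6.76, and the activators Npas2 at 7.36 and 7.17, Bmal1 at 7.78 and 7.59 and Clock at 9.28 and 9.22. The activator Rora was lower, at 8.76 and 9.03. Apart from Csnk1d, Ciart and Bhlhe41, the PNY value of each gene lay inside the range of the other 6 arrays, which for Dbp ran over 6.32 to 9.57. Against the mean of SHAM at 3 and 7 days, PNY was higher for Nr1d1 by 0.35, Per2 by 0.31 and Dbp by 0.70, and the list median was -0.001. Against SHAM of the same time these 3 genes were lower in PNY at 6 hours, 3 days and 7 days as well. The differences were -0.410, -0.735 and -0.922 for Nr1d1, -0.141, -0.052 and -0.165 for Per2, and -0.744, -0.512 and -0.360 for Dbp. The list medians were -0.175, -0.041 and -0.145. On the SHAM arrays Dbp went from 9.57 at 6 hours to 6.675 at 7 days. The E-box CACGTG, the site of Clock and Bmal1, was found on either strand in 5 of 17 clock genes with a promoter (29.4%, against 6.86% of all genes), and the D-box TTATGNAA, the site of Dbp, Tef and Hlf, in 2 of 17 (11.8%, against 3.63%). For 3 members that were lower at 1 day and for Cry1, which was higher, they read as follows, with the motif in capitals.
Tef E-box (chr15:81802526-81802571, plus strand): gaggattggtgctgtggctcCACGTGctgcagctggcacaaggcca
Per1 E-box (chr11:69098763-69098808, plus strand): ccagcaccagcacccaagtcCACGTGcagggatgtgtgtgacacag
Cry1 E-box (chr10:85185089-85185134, minus strand): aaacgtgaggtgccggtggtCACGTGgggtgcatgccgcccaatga
Per3 D-box (chr4:151044843-151044890, minus strand): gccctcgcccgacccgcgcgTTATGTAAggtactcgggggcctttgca
Per1 had 9.11 in PNY and 9.41 in SHAM. Nr1d1 and Dbp held neither motif in this window, and Per2 had no promoter sequence to search.

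Genes of the cell cycle were slightly higher. DNA replication genes were higher in 23 of 28 cases, none by 1.5-fold, with a median of 0.21, and 22 of the 28 had a PNY value above all 4 SHAM arrays, where 15.5% of all genes did. The ribonucleotide reductase subunit Rrm2 had 8.81 in PNY and 8.25 in SHAM, the checkpoint kinase Chek1 6.15 and 5.62 and the helicase subunit Mcm5 8.37 and 8.00. Mitosis genes were higher in 28 of 32 cases, 5 by 1.5-fold, with a median of 0.25, but here PNY was above all 4 SHAM arrays for 5 genes. SHAM of 1 day was below all arrays of the other times for 16 mitosis genes, against 20.0% of all genes. Aspm, a spindle pole protein, had 6.22 in PNY and 4.62 in SHAM by its brightest probe set, with 3 of 5 probe sets higher, and Birc5, or survivin, 7.21 and 6.27. The proliferation marker Mki67 had 7.14 and 6.90. The difference was far wider later, when 28 mitosis genes at 3 days and 32 at 7 days were past 1.5-fold, with medians of 1.06 and 1.71. Of all genes 1.14% and 1.98% were higher by that fold at these times. Against the mean of SHAM at 3 and 7 days the mitosis median was -0.08. The 15 thymocyte genes were higher on the same PNY array, and thymocytes are known to divide; their part in the cell cycle difference was not tested.

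**Figure D5:**
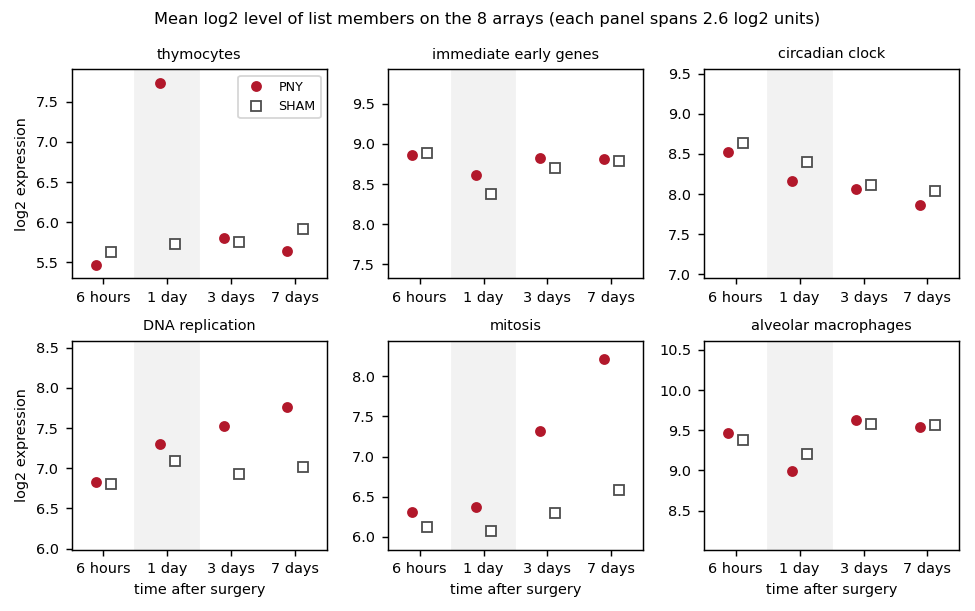
Mean log2 level of the measured members of 6 gene lists (y axis, each panel spanning 2.6 log2 units) against time after surgery (x axis), PNY as filled circles left of SHAM as open squares, 1 array per point, 1 day shaded. The thymocyte list has 7.73 in PNY and 5.73 in SHAM at 1 day, and immediate early and mitosis genes have their lowest mean in SHAM of 1 day.

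The genes furthest below SHAM at 1 day were a mixed set. Acta1, the actin of skeletal muscle, had 5.90 in PNY and 7.47 in SHAM, a 2.97-fold difference, and Tnnc2, a troponin of fast muscle, 4.82 and 6.53. For Acta1 the other 3 SHAM arrays held 5.96 to 6.18, so SHAM of 1 day stood apart from them. PNY of 1 day lay just below these arrays, and PNY of 7 days had 8.17. Of 17 skeletal muscle genes 4 were at least 1.5-fold lower, with Tnnt3 (4.59 and 5.46) and Atp2a1 (5.67 and 6.38), and the mean level of the list was 5.30 in PNY and 5.65 in SHAM, with 5.21 to 6.07 on the other arrays. The highest of these was PNY of 7 days, where 9 of the 17 genes were at least 1.5-fold higher, against 1.98% of all genes. Susd5 had 7.78 in PNY and 9.16 in SHAM, and Psg28 6.15 and 7.55, and in both the SHAM array of 1 day was the highest of the 8. Zbtb16, a factor that glucocorticoids induce, had 9.12 in PNY and 10.24 in SHAM, with 7.45 to 10.81 elsewhere. The chaperone genes Hspa1b (9.88 and 10.70), Hspa1a (8.22 and 8.91) and Hsph1 (9.92 and 10.66) made up the heat shock genes past the mark, 3 of 22. For Psg28, Susd5, Zbtb16, Hspa1a, Hspa1b and Hsph1 the PNY value was above the mean of SHAM at 3 and 7 days, so they too turned with the control. Against SHAM of the same time Zbtb16 was lower in PNY at 6 hours, 3 days and 7 days too, with differences of -0.034, -1.487 and -0.478. Arg1, an arginine-degrading enzyme of macrophages, had 8.12 in PNY and 9.07 in SHAM, but it ranged over 6.24 to 9.73 on the other arrays. Serpinb2, an inhibitor of plasminogen activators, had 5.46 in PNY and 6.22 in SHAM. It was lower in PNY at each of the other times also, by 0.79, 0.25 and 3.58.

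Outside the lymphoid lists and receptor segments, part of the 1 day difference was shared with the other times, which have their own SHAM arrays. Of the 296 higher genes 30 (10.1%) were also past 1.5-fold at 3 days, which are 14.5% of the 207 such genes there, where 1.15% of all these genes were past the mark (1.14% with the lymphoid genes and segments). At 7 days 38 of the 296 (12.8%) were, or 10.6% of 360 genes, where 1.99% of these genes were past it (1.98% with the lymphoid genes and segments). At 6 hours 13 (4.39%) were, where 0.675% of these genes were past it. Among those shared with both later times were Tnc, Igfbp2, Pappa2, Adamts9, Clca1, Actg2, Aspm and Birc5. Among the 198 lower genes 9 (4.55%) were lower by 1.5-fold at 3 days, 7 (3.54%) at 7 days and 6 (3.03%) at 6 hours, where 0.47%, 1.3% and 1.02% of these genes were, and Igfbp3 and Nr1d1 were so at both. Over the 12074 such genes above the median level, the correlation of the 1 day difference across genes was 0.02 with 6 hours, 0.27 with 3 days and 0.11 with 7 days (Pearson), a description over genes that share their arrays.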

How the data were processed

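RNA of lung tissue pooled from 8 mice was hybridized to 1 Affymetrix mouse array for each surgery and time (8 arrays). The authors made the deposited log2 values with RMA in BioConductor (version not given in the sources used here), by background correction, quantile normalization and summarization per probe set. Array medians were 5.901 to 5.948. Probe-level values were not used here. The 64 control probe sets were left out, leaving 45037, of which 34945 carry 1 gene symbol in the array annotation and 932 several. Genes were named from the first only. The brightest probe set stood for a gene, and 18145 of 18193 symbols were found in RefSeq.

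The 1 day difference is PNY minus SHAM, counted past 1.5-fold with no test. Precision is limited by 1 array a side. The contrast with the other times used limma 3.58.1 in R 4.3.3, with time as a block and errors drawn toward a common value. It was tested on simulated data under 2 noise models, the second set up after the first called few genes, and under the second the share of false calls was above the nominal level, so its calls are best read with caution. Counts were made in Python 3.11.15 and were also tested on simulated data. The p-values rest on pooled samples at different times and do not measure the spread between mice.

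In all 56 gene lists with 849 entries were used, of which 799 were measured and 50 were not analysed here. The members and lists were chosen with earlier results of these data known. Named genes were the 15 furthest above and below SHAM among genes above the median level of 5.92, up to 4 members per list with the widest difference (all members of the thymocyte, T cell, clock, immediate early and IGF lists), genes the study measured or named at 1 day, and the smallest limma p-values. These are 307 genes, and not all of them, nor all of the furthest 15 on each side, are mentioned above. Other genes are named as examples for a list, chosen after their values were seen. Alternatives were centring, a second quantile normalization, a loess correction for level, a filter at the median level, averaged probe sets per gene, other SHAM arrays as control, and a fold of 2.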

Additional observations from a re-analysis of the deposited data

Results flagged for a closer look

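The limma contrast of the 1 day difference with the mean of the other 3 times passed an adjusted p of 0.05 (Benjamini-Hochberg) at 20 probe sets with a gene name, each of which is given here by how much further PNY lay above SHAM at 1 day, on the log2 scale. Genes of thymocytes made up most of them. Rag1 exceeded the other times by 6.093. Dntt did so by 4.134 and 3.001 at 2 probe sets, Ccr9 by 3.318, 2.892 and 2.507 at 3, and Cd8a by 2.945 and 2.327 at 2. Cd8b1 exceeded them by 2.744, Satb1 by 2.251, Bcl11b by 2.006 and Arpp21 by 1.904. Of the thymic stroma list, Prss16 exceeded them by 2.797 and Tbata by 3.068 and 3.014. The T cell genes Sh2d1a and Cd28 did so by 2.675 and 1.898, the receptor segment Trbv1 by 2.265, and 1 of the 11 probe sets of Ighm by 4.466. Vmn1r148 lay on the other side, at -3.045, with the SHAM array of 1 day apart from the rest.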

How the results depend on the processing

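Each difference at 1 day rests on 1 array a side, so no replicate could be left out. The labels give no replicate numbers, and PNY and SHAM were paired by time alone, through the block in the limma contrast. Against the 342 higher and 198 lower genes, 170 and 47 were counted above the median level, 195 and 117 against the mean of the 4 SHAM arrays, and 72 and 19 at a fold of 2. Against the mean of SHAM at 3 and 7 days 186 were higher and 200 lower. With PNY also outside all 4 SHAM arrays, an alternative chosen after seeing the data, 225 were higher and 135 lower. Higher genes were 63.3% of those counted, against 78.3% above the median level, 48.2% against SHAM of 3 and 7 days and 53.5% with centred arrays (287 higher and 249 lower). The thymocyte median of 1.805 was 1.406 with averaged probe sets and 1.44 against SHAM of 3 and 7 days. The T cell receptor median of 0.949 was 0.662 with the mean of probe sets, 0.684 against the 4 SHAM arrays and 0.466 against SHAM of 3 and 7 days. Against that last control the clock median was -0.001 and the mitosis median -0.082, and 19 of 55 list medians moved by more than the SD of all gene differences. The limma contrast called 31 probe sets, 56 with centred arrays, 0 above the median level, 84 with a trended and robust prior, 4 with no block for time, 17 without 3 days and 98 without 7 days. Of differences past 1.5-fold, the following turned sign against the mean of SHAM at 3 and 7 days: Psg28 0.506, Susd5 0.143, Zbtb16 0.577, Gm6958 0.162, Hspa1b 0.714, Hspa1a 0.225, Hsph1 0.072, Hamp 0.054, Ccl24 0.572, Dbp 0.703, Nr1d1 0.346 and Per2 0.309 were higher, and Ighm -0.717, Slc26a4 -0.479, Slc7a10 -0.135, Egr1 -0.739, Egr2 -0.095, Nr4a1 -1.032, Ccn1 -0.532, Cep55 -0.025, Cxcl10 -0.312 and Egln3 -0.356 were lower. Against the mean of the 4 SHAM arrays, Ccl24 0.112, Hsph1 0.108, Egr1 -0.07, Nr4a1 -0.228 and Cxcl10 -0.441 turned. Against SHAM of the same time, some of these kept the sign of their 1 day difference at each time. Among them were Dbp, Nr1d1, Per2, Zbtb16, Hamp, Slc26a4, Nr4a1, Ccn1 and Cep55. The cause of the turns was not tested. Of 307 named genes of any size of difference, 101 turned sign against SHAM of 3 and 7 days and 48 against the 4 SHAM arrays. With averaged probe sets 13 turned, with centred arrays 4, and with quantile normalization and the loess correction 3 each. The filter at the median level could turn none, since the 284 genes that stay keep their probe set and value.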
